A study of Mus musculus with 2 samples.

Results

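Haematopoietic niche cytokines are the secreted or surface-bound factors on which blood-forming cells depend, and 9 of the 21849 genes in the deposited tables were taken for them by symbol: Kitl, Csf1, Il6, Lif, Il11, Il7, Il34, Angpt1 and Thpo. The study profiled costal cartilage-derived stem cells (CDSCs) of the mouse by droplet single-cell RNA sequencing and asked what changes when these cells are grown in culture. The primary CDSCs were sorted as CD45- CD51+ cells from rib cartilage that had been digested with type II collagenase, taken from newborn C57BL/6J mice of CD45.1 or ZsGreen genotype within 1 week of birth. The cultured CDSCs were the same kind of cells grown in serum-containing medium to passages 2 to 3. Each group was 1 library, the number of animals behind it was not stated, and bone marrow is given as the tissue in the labels of both.

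Haematopoietic stem cells and their progeny depend on factors that stromal and endothelial cells of the marrow secrete or display on their surface. Stem cell factor, the product of Kitl, keeps stem cells alive through the receptor Kit. Csf1 and Il34 share the receptor Csf1r and sustain macrophages and osteoclast precursors, Il7 is needed for B and T lymphocyte precursors, Thpo acts on stem cells and megakaryocytes, and Angpt1 signals to Tek on endothelial and stem cells. Il6, Lif and Il11 each bind a receptor of their own that then recruits gp130, the shared signalling chain encoded by Il6st.

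After filtering, 10628 primary and 4877 cultured cells were kept, with 114411472 and 293537594 unique molecular identifiers (UMIs, counts of captured transcripts). The median cell held 9616 UMIs in the primary and 54810 UMIs in the cultured library. The libraries shared 32 cell barcodes. ZsGreen transcripts had 51056 UMIs among primary and 0 UMIs among cultured cells, and the Y-linked gene Uty was at 0.0787 and 61.5 CPM (UMIs of a gene as a share of all UMIs of the library, times 1000000), so the animals behind the libraries differed as well as the culture, and the part of each cannot be told apart. The 14 chondrocyte markers summed to 95758 CPM in primary CDSCs and 1025 CPM in cultured CDSCs, with 14 of 14 at least 4-fold lower after culture. Acan, which encodes the main cartilage proteoglycan, stood at 1944 and 2.37 CPM, so the cultured cells held little of the transcripts that define cartilage. The 10 haematopoietic markers summed to 8.15 and 35.5 CPM. With 1 library per group no test was possible. Ranges in brackets below are exact 95% intervals that cover counting error only.

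Transcript levels of most of these cytokines were higher in the cultured library. Of the 9 genes, 6 exceeded a 4-fold difference upwards in cultured CDSCs and 0 exceeded it downwards, beside 11.5% and 11% of the 17192 genes with over 3 UMIs in either library. The median of the 9 log2 ratios was 3.56, beside 0.22 for all those genes.

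Kitl and Angpt1, factors that act on stem cells, were higher in culture, and Thpo could not be separated. Kitl (chr10:100015630-100100416, ENSMUSG00000019966, GRCm38 coordinates here and below) had 729 UMIs or 6.37 CPM in primary CDSCs and 18095 UMIs or 61.6 CPM in cultured CDSCs, a log2 ratio of 3.27 (3.17 to 3.38). Angpt1 (chr15:42424723-42676977, ENSMUSG00000022309) went from 1.56 to 18.4 CPM, a log2 ratio of 3.56 (3.35 to 3.79). Both lay far above the range that counting error allows. Thpo (chr16:20724454-20734511, ENSMUSG00000022847), whose product is made mainly in the liver, was scarce in both libraries. It had 29 UMIs in primary and 75 UMIs in cultured CDSCs, or 0.253 and 0.256 CPM, and its log2 ratio of 0.01 (-0.62 to 0.68) left room for a change of either sign.

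The macrophage growth factors were both higher after culture. Csf1 (chr3:107741048-107760469, ENSMUSG00000014599) was at 14.6 CPM in primary and 223 CPM in cultured CDSCs, with a log2 ratio of 3.93 (3.86 to 4.0). Il34 (chr8:110741829-110805924, ENSMUSG00000031750) was at 1.09 and 14.8 CPM, with a log2 ratio of 3.76 (3.51 to 4.03). Il7 (chr3:7569994-7613760, ENSMUSG00000040329), the lymphoid factor, had only 4 UMIs over all primary cells and 800 UMIs over all cultured cells. Its log2 ratio of 6.28 was the widest in uncertainty of the 6 (4.92 to 8.16).

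The 3 gp130 cytokines did not move together. Il6 (chr5:30013114-30019981, ENSMUSG00000025746) had 76 UMIs in primary and 7182 UMIs in cultured CDSCs, 0.664 and 24.5 CPM, and a log2 ratio of 5.20 (4.88 to 5.55). Lif (chr11:4257557-4272514, ENSMUSG00000034394) was at 2.69 and 8.66 CPM, a log2 ratio of 1.69 (1.51 to 1.86) that stayed under 4-fold. Il11 (chr7:4772373-4782859, ENSMUSG00000004371) was at 6.21 and 7.13 CPM, a log2 ratio of 0.20 (0.07 to 0.32) that was below the median of all genes and turned to -0.01 with TMM and -0.03 with median of ratios scaling. The plot of levels shows 6 genes whose points lie far apart, and Lif, Il11 and Thpo, whose points lie closer. These scalings lowered every log2 ratio by the same amount, and that of Thpo became -0.19 and -0.21.

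**Figure D1:**
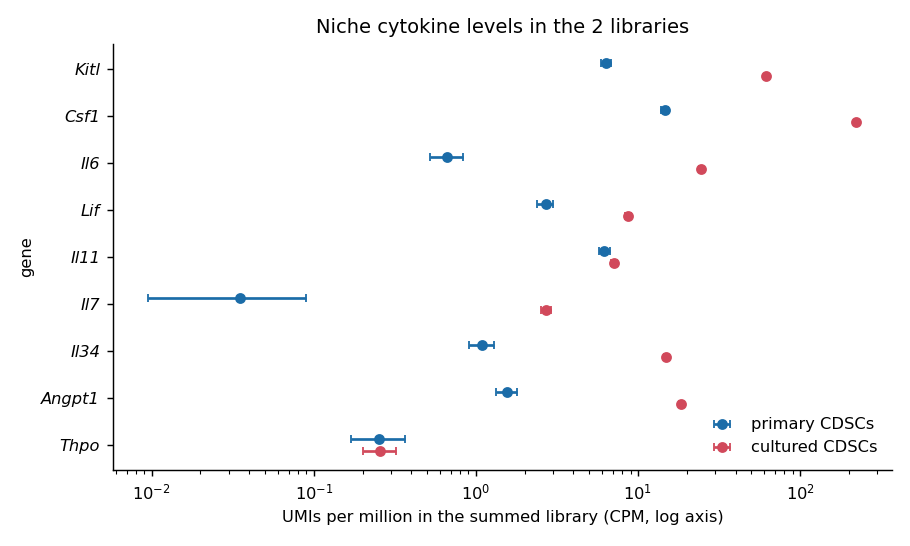
Level of each of the 9 cytokine genes in CPM (log axis) in the summed primary (blue) and cultured (red) library, with exact Poisson 95% intervals for counting error. The other 6 genes sit at least 4-fold higher in the cultured library, Lif sits 3.22-fold higher, and the points of Il11 (6.21 and 7.13 CPM) and Thpo (0.253 and 0.256 CPM) lie close together.

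The same genes were next counted per cell. Depth differed between the libraries, so each cell was thinned at random to 5000 UMIs, which kept 9845 primary and 4093 cultured cells and left out 783 and 784 shallower ones. Csf1 was found in 453 primary cells, 4.60% (4.2 to 5.03), and in 2425 cultured cells, 59.2% (57.7 to 60.8). Kitl was found in 1.87% (1.61 to 2.16) and 21.2% (19.9 to 22.5), and without thinning in 3.46% and 60.9%. Il6 went from 0.234% to 10.5% of cells, Angpt1 from 0.681% to 9.04% and Il34 from 0.528% to 6.23%. For 8 of 9 genes the cultured share lay above the primary share with intervals apart, Thpo being the exception at 12 and 2 cells. How many of all genes meet this rule was not computed, so the count is not read as particular to the cytokines.

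Il11 was counted in more cells after culture, 1.74% (1.49 to 2.02) and 3.32% (2.80 to 3.92), although its summed level was nearly the same. Cells with at least 2 UMIs of Il11 were 0.447% of primary and 0.415% of cultured cells, with overlapping intervals, so no order is read from its share alone. As a gauge of free RNA, the 9 cultured cells with haematopoietic markers (Pf4, Lyz2 and C1qb; median 35946 UMIs) held 0 UMIs of Il6, Il11 and Angpt1, which allows up to 9.10 CPM, beside library levels of 24.5, 7.13 and 18.4 CPM. For Il11 this limit lies above the library level, so the gauge cannot tell its transcripts from free RNA. The same 9 cells held 5 UMIs of Kitl (12.3 CPM, 4.01 to 28.8) and 22 UMIs of Csf1 (54.3 CPM, 34.0 to 82.2), both below the library levels. At 5000 UMIs Kitl was in 0 of these 9 cells, which allows a share of up to 33.6%, and Csf1 in 2 of 9.

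The genes were then followed across cell groups, found by clustering each library alone and named by their leading genes. Kitl, Csf1 and Il11 were among the 2000 variable genes that formed the primary groups, and Kitl, Il11 and Angpt1 among those of the cultured groups, so differences between groups are a description. The share of all genes with highest and lowest groups apart was not computed. Clustering without the 9 genes gave the same number of these genes with highest and lowest groups apart, 6 in primary and 8 in cultured CDSCs. In primary CDSCs this number was 7 at a higher clustering resolution, with Il6 added, and 5 with 30 components, with Lif lost.

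Among primary CDSCs, Kitl was by far the highest in endothelial-like cells. The 25 cells with endothelial markers (Pecam1, Cdh5, Kdr) held 166 of the 729 Kitl UMIs of the library and reached 581 CPM (496 to 676), with Kitl in 18 of 25 cells. A single cell with mast cell markers clustered beside them and held 0 Kitl UMIs. Without this group the library log2 ratio of Kitl was 3.64. Among the 9 large groups the highest was the dividing cells led by Cenpf, Ube2c and Top2a, at 21.3 CPM (16 to 27.8), and the other 8 large groups lay between 2.62 and 8.83 CPM.

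Among the 9 large primary groups, Il11 and Csf1 were highest in 1 and the same one, the 1080 cells with Plet1 and Slc22a4 among their leading genes, together with Ptgs2, the inducible prostaglandin synthase. Il11 reached 25.2 CPM there (22.5 to 28.1). It followed at 12.2 CPM (10.1 to 14.6) in the group led by Slc35f1, Runx3 and Wnt5b, and lay at 1.01 CPM (0.483 to 1.85) in the group led by Hspa1a, Klf2 and Wif1, 25.1-fold lower than in the highest group. Csf1 was at 31.0 CPM (28.0 to 34.2) in the Plet1-led group and at 21.0 CPM (19.3 to 22.7) in the group with Aoc2 and Acta2 in the lead, intervals apart. Lif was highest in the same Plet1-led group at 5.83 CPM (4.58 to 7.32), not separable from 4.17 CPM (2.97 to 5.70) in the Runx3 group.

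Small primary groups had the highest Csf1 and Il34 levels. The 25 endothelial-like cells held 27 UMIs of Csf1, 94.4 CPM (62.2 to 137). The 25 pericyte-like cells (Rgs5, Notch3, Myh11) held 21 of the 125 Il34 UMIs, 58.7 CPM (36.3 to 89.7), and also 20 UMIs of Csf1, 55.9 CPM (34.1 to 86.3). The 180 cells with Col1a1 and Postn held 8 Angpt1 UMIs, 8.42 CPM (3.63 to 16.6), not separable by its interval from 2.46 CPM (1.56 to 3.69) in the Runx3 group. Il7 and Thpo had at most 2 and 7 UMIs in any primary group.

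In each of the 9 large cultured groups all 9 genes had UMIs, and the levels of 8 of them differed between groups beyond their intervals. Without a share over all genes, that count is not read as particular to the cytokines. Kitl was highest at 110 CPM (107 to 113) in the group led by Hmcn1, Il1rl1 and Bnc1, with 66.9 CPM (63.3 to 70.7) in the group led by the histone genes H1f5, H2ac24 and H2ac4 next. It was lowest in the group led by Nr5a2, Barx1 and Sfrp2 at 22.1 CPM (20.2 to 24.1) and in the group led by Ptn and Myh11 at 23.2 CPM (20.4 to 26.3), which did not differ beyond their intervals.

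Csf1 was highest where Kitl was lowest. It stood highest in the Ptn-led group at 403 CPM (391 to 416) and the Nr5a2-led group at 346 CPM (339 to 354), both low in Kitl, and lowest in the group led by Ndufa4l2, Mt1 and Slpi at 132 CPM (128 to 135). The Nr5a2-led group, the only one with the chemokine Cxcl12 as a marker, also had the highest Il34, 32.0 CPM (29.8 to 34.4), 7.33-fold above the Ptn-led group at 4.37 CPM (3.19 to 5.85). Il34 encodes the other ligand of the Csf1 receptor, and the pair of groups highest in Csf1 were thus highest and lowest in Il34.

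Angpt1 differed widely between the cultured groups. The group led by Mmp13, Csmd1 and Pdzrn4 was at 67.0 CPM (63.8 to 70.2), the Ptn-led group at 46.3 CPM (42.2 to 50.6) and the Ndufa4l2-led group at 5.85 CPM (5.22 to 6.55), an 11.4-fold span. The span depended on the clustering and was 32.1-fold at a resolution of 1 and 24.3-fold with 30 components, where Il34 spanned 31.3-fold, and 8.61-fold when the 9 genes were left out. Il6 was highest in the Mmp13-led group at 36.3 CPM (34.0 to 38.8) and lowest in the histone-led group at 9.88 CPM (8.53 to 11.4) and the Nr5a2-led group at 10.1 CPM (8.85 to 11.5). Lif at 13.4 CPM (12.4 to 14.4) and Il11 at 10.2 CPM (9.30 to 11.1) were highest in the Hmcn1-led group, Il11 there not separable from 9.56 CPM (8.61 to 10.6) in the group led by Angptl7. Il7 was highest in the Ptn-led group at 4.95 CPM (3.69 to 6.51), not separable from 4.59 CPM in the Mmp13-led group, and Thpo did not differ between groups beyond its intervals.

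**Figure D2:**
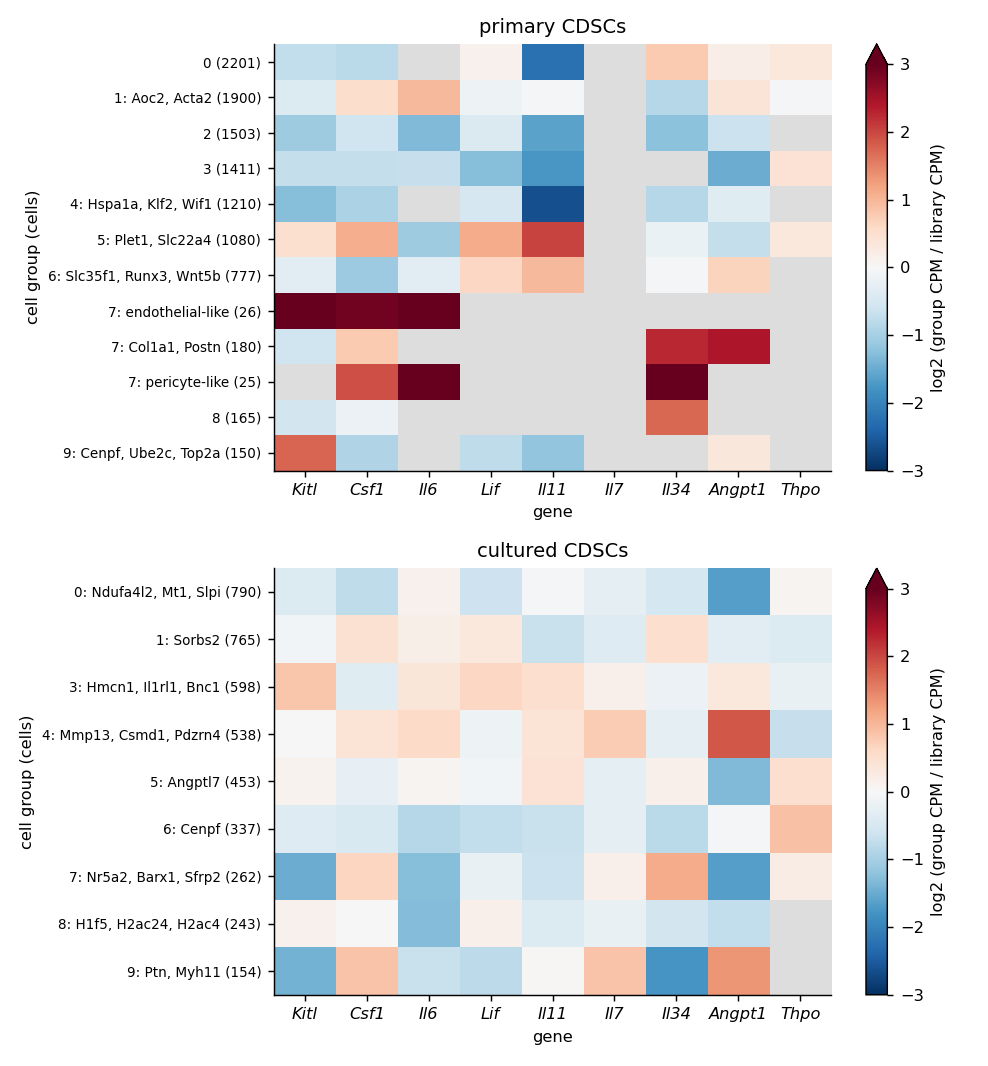
Level of each cytokine gene (columns) in each cell group (rows, numbered, with leading genes or cell type where the text gives them and the number of cells) as log2 of the group CPM over the library CPM, in primary (top) and cultured (bottom) CDSCs. Grey marks 3 UMIs or fewer; the endothelial-like row stands out for Kitl in primary CDSCs, and the Mmp13-led row for Angpt1 in cultured CDSCs.

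To find cells that express several of the cytokines together, the number of the 9 genes with at least 1 UMI was counted in each cell, and set beside the number that would be found if each gene were detected independently at its own share. Among 9845 primary cells at 5000 UMIs, 8840 held none of the 9 genes, 942 held 1, 62 held 2 and 1 held 3. The 63 cells with at least 2 genes were 0.640% (0.492 to 0.818), where independence gave 41.7 cells, a ratio of 1.51. Computed inside each cell group and then added up, independence gave 49.9 cells, a ratio of 1.26.

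Such primary cells were seen in 11 of 12 groups, unevenly. The Plet1-led group held 20 of the 63 with 10.6% of the cells, the Aoc2-led group held 19 with 19.0% of the cells, and 5 of the 18 cells of the endothelial-like group at this depth, 27.8% (9.69 to 53.5), held at least 2. Kitl with Csf1 was seen in 19 cells, 2.24 times (1.35 to 3.50) the product of their shares, and Csf1 with Il11 in 18 cells, 2.29 times (1.36 to 3.61). Within cell groups the first ratio was 1.43, with 1 inside its interval, and the second 1.84, still above. Csf1 with Il7 was also above, but on 2 cells.

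Cultured CDSCs more often held at least 2 of the genes than primary CDSCs at one depth. At the same 5000 UMIs, 30.6% (29.2 to 32.0) of 4093 cells held at least 2 of them, beside 0.640% of primary cells. Thinned to 20000 UMIs, which kept 3744 cells and left out 1133 shallower ones, the mean was 2.39 genes per cell, 98.0% of cells held at least 1 and 43.1% (41.5 to 44.7) at least 3. Csf1 was in 91.7% of these cells, Kitl in 1873 cells, Il6 in 26.7%, Angpt1 in 21.3%, Il34 in 20.1%, Lif in 13.9%, Il11 in 10.0%, Il7 in 5.29% and Thpo in 0.267%. Csf1 alone (636 cells) and Kitl with Csf1 (565 cells) were the commonest of 161 combinations.

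Cells with many of the genes were more frequent than independent detection gave. Cells with at least 3 genes were 1615, beside 1620 if independent, and cells with at least 4 were 585, beside 537. Cells with at least 5 genes were 146, or 3.90% (3.30 to 4.57), beside 106 if independent, a ratio of 1.38, and 110 when computed inside cell groups. Cells with at least 6 were 27 beside 11.9. The only combination of 7 was Kitl, Csf1, Il6, Lif, Il11, Il34 and Angpt1, in 4 cells, beside 0.260 if independent, and the variance of the number per cell was 1.15 times that of independent detection. The plot of the number per cell shows the observed points leaving the expected marks as the number grows.

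**Figure D3:**
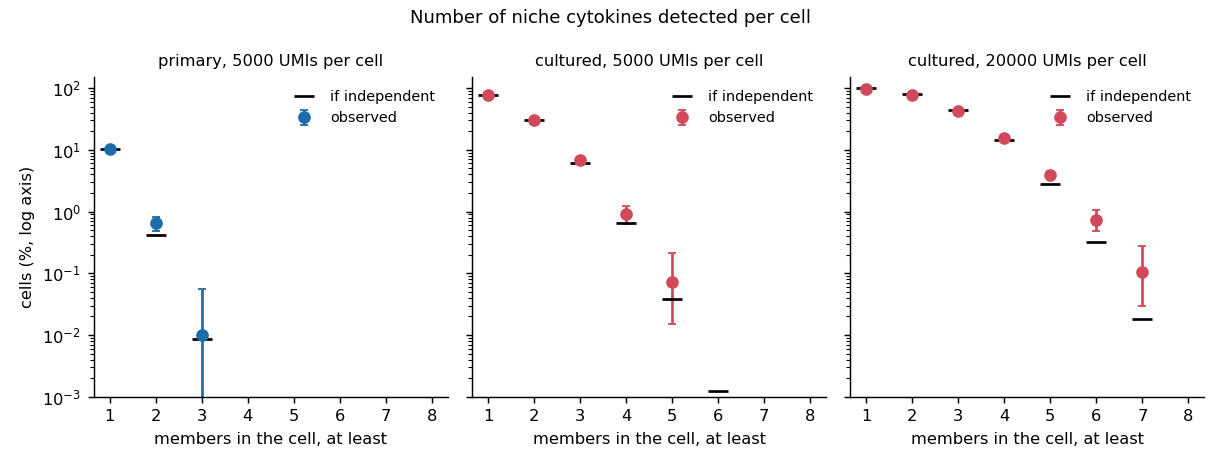
Share of cells (log axis) with at least the given number of the 9 genes, observed (points, exact binomial 95% intervals) and if each gene were detected independently (bars), for primary and cultured CDSCs thinned to 5000 UMIs and cultured CDSCs thinned to 20000 UMIs. At 20000 UMIs, 3.90% of cultured cells held at least 5 genes beside 2.82% if independent.

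Cells with at least 5 genes were found in each of the 9 large cultured groups. They made up 6.30% (4.29 to 8.88) of the Mmp13-led group and 6.16% (4.35 to 8.43) of the Hmcn1-led group, and 1.18% (0.244 to 3.41) of the Nr5a2-led group and 1.67% (0.545 to 3.86) of the dividing group led by Cenpf. Independent detection inside each group gave 4.61%, 5.66%, 1.04% and 0.904% of these groups. In every large group the observed share was above the value if independent, which lay inside its interval. Depth before thinning did not rise with the number of genes. Its median was 71219 UMIs in cells with 0 to 2 genes and 62417 UMIs in cells with 6 or more, and the ratio of observed to independent cells with at least 5 genes was 1.69 in the 708 shallowest of the cells, 1.32 in the next 1501 and 1.35 in the 1535 deepest. After thinning, the median of all genes detected per cell was 4964 with 0 to 2 cytokines and 5116 with 6 or more. The part of this difference was not tested.

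Pairs of genes showed which cytokines went together. Of 36 pairs in the cultured cells at 20000 UMIs, 5 were found together more often than the product of their shares and 0 less often, taking intervals of single pairs that were not adjusted for their number. Pairs of other genes were not counted in this way, so the excess is not read as particular to the cytokines. The 3 gp130 cytokines were above in all their pairs. Lif and Il11 were together in 77 cells, 1.47 times (1.16 to 1.83) the product, Il6 and Lif in 185 cells, 1.33 times (1.15 to 1.53), and Il6 and Il11 in 128 cells, 1.27 times (1.07 to 1.51). All 3 were in 35 cells, beside 14 if independent. Il11 with Angpt1 was at 1.25 times (1.02 to 1.51) and Lif with Il34 at 1.23 times (1.03 to 1.46), the latter no longer above when computed inside cell groups. At other depths the pairs called above changed: of the 3 gp130 pairs, Il6 with Il11 was above at 5000, 10000 and 40000 UMIs as well, Lif with Il11 not at 10000 and Il6 with Lif not at 5000 and 40000. Computed inside cell groups at 5000 UMIs, none of these 3 pairs was above, with ratios of 1.23 for Il6 with Lif, 1.52 for Il6 with Il11 and 1.95 for Lif with Il11.

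Kitl and Csf1, found together in 1726 cells, or 46.1%, were at 1.00 times (0.970 to 1.04) the product, so that they shared cells about as often as their own shares gave. Il34 and Angpt1 had the lowest ratio among pairs without Thpo, 0.904 (0.765 to 1.06), and 0.983 inside cell groups. The correlation of log counts over the 3744 cells was weak for every pair, with the highest Pearson r at 0.11 for Csf1 with Angpt1 and for Il6 with Lif. These cells share 1 library and 1 depth.

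**Figure D4:**
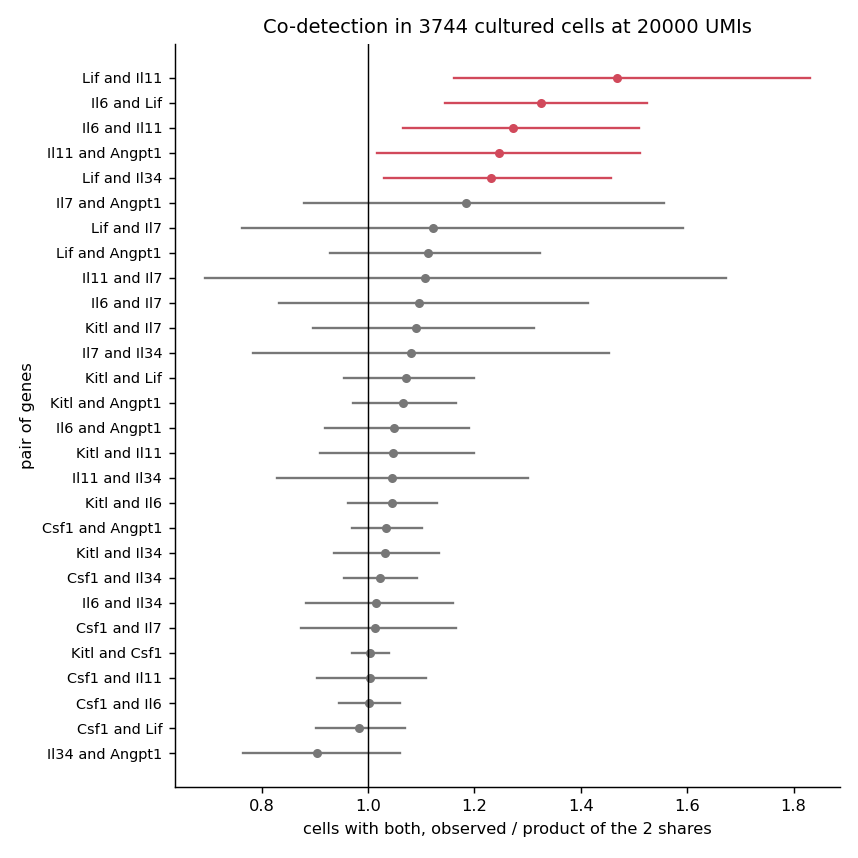
Number of cultured cells with both genes of a pair over the product of the 2 shares, for the 28 pairs without Thpo in 3744 cells at 20000 UMIs, with exact binomial 95% intervals of the shared count. The 5 pairs in red lie above 1, the 3 pairs of Il6, Lif and Il11 among them, and no pair lies below 1 beyond its interval.

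Sequences before listed transcript starts are shown for the 3 gp130 cytokines, whose pairs were above the product of their shares at 20000 UMIs, and for the widely detected Csf1 and Kitl. Each is the 250 bases before a transcript start in RefSeq on GRCm38.p6, read towards the gene. Capitals mark matches on either strand to 8 motifs that were searched: AP-1 (TGANTCA), the cAMP response element (TGACGTCA), NF-kB (GGGANTTTC), C/EBP (TTNCNNAA), STAT (TTCCNGGAA), TEAD (GGAATG), the promoter element of TATA-binding protein (TATAAA) and the GC box (GGGCGG). The Il11 sequence is that of the second listed start and lies inside the gene as annotated in GENCODE, as do 191 bases of the Kitl and 11 bases of the Lif sequence. The table held 8 windows for 6 of the 9 genes, with a pair each for Il11 and Thpo.
Il6, chr5:30012864-30013113, forward strand: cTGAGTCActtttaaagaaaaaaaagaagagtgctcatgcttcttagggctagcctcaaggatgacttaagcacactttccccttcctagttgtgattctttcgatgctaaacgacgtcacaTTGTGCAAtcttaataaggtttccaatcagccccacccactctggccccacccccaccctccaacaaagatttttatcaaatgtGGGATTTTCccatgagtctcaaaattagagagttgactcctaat
Lif, chr11:4257318-4257567, forward strand: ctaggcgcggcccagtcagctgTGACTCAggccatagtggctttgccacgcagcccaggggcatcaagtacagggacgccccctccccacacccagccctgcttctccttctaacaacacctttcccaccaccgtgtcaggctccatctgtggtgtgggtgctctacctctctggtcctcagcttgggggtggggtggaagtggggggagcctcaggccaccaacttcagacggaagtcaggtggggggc
Il11, chr7:4778142-4778391, reverse strand: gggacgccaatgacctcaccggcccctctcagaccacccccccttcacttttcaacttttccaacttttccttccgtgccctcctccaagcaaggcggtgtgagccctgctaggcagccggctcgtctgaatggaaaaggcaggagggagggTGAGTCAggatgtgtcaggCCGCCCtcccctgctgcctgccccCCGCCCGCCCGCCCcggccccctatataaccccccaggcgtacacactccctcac
Csf1, chr3:107760470-107760719, reverse strand: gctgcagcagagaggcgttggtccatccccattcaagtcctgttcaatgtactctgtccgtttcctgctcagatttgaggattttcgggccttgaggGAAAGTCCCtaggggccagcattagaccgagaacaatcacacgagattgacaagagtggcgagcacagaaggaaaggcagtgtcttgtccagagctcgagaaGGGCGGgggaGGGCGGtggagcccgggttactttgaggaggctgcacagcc
Kitl, chr10:100015571-100015820, forward strand: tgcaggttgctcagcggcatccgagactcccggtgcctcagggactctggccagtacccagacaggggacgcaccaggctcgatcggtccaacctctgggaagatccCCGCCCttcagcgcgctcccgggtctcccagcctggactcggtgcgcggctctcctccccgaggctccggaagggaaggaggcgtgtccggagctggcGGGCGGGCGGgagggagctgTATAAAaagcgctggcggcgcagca

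An AP-1 match, the letters bound by Fos and Jun dimers, stood in 3 of the 8 windows, 1 each of Il6, Lif and Il11, beside 6.75% of all 32851 windows. The window of the first listed Il11 start, not printed above, held 1 GC box and no AP-1 match. An NF-kB match stood in 2 of the 8, those of Il6 and Csf1, beside 0.941% of all windows. C/EBP letters were in the window of Il6 alone, with 36.8% of all windows holding them, and the TATA box in that of Kitl alone, with 12.4%. GC boxes were in 5 of the 8, of Csf1, Il11, Kitl and Thpo, with 32.7% of all windows, and some overlap each other. The cAMP response element, STAT and TEAD letters had no match in the 8 windows, with 1.55%, 0.913% and 12.6% of all windows. A match is a run of letters and says nothing of binding here.

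The cells with many cytokines were compared with the rest on lists of other genes. NF-kB and inflammatory target genes had a higher summed level in cells with more cytokines. The 15 genes of this list summed to a median of 11 UMIs per cell in the 2129 cells with 0 to 2 cytokines, 14 in cells with 3, 16 in cells with 4 and 19 in the 146 cells with 5 or more. As summed levels these were 743, 922, 1123 and 1729 CPM, a 2.33-fold span that was 1.87-fold at 40000 UMIs. Between cells with 0 to 2 and cells with 5 or more cytokines, 13 of the 15 genes were higher with 1 outside the counting interval and 2 were not, Rela at 0.94-fold and Nfkb2 at 0.84-fold, and the median was 1.78-fold. The share of all genes that were higher in this way was not computed, so the count is not read as particular to this list. The named genes were among the steepest. The chemokine Ccl2 went from 22.3 to 108 CPM, the chemokine Cxcl5 from 36 to 174 CPM and Lcn2, an iron-scavenging protein, from 49.1 to 201 CPM. Single cells weighed heavily in these sums. Of the UMIs in the 146 cells, 1 cell held 32.5% for Ccl2, 28.1% for Cxcl5, 32.9% for Lcn2 and 201 of 621 for the acute phase gene Saa3. The share of cells with Ccl2 went from 14.9% to 27.4% and with Lcn2 from 19.9% to 27.4%.

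Within groups the same list went from 712 to 1971 CPM in the group led by Sorbs2, from 929 to 2290 CPM in the Mmp13-led group and from 967 to 1163 CPM in the Hmcn1-led group. As medians per cell these were 11 and 22 UMIs, 12 and 16.5 UMIs, and 17 and 21 UMIs. The medians of the Mmp13-led and Hmcn1-led groups thus rose by similar amounts. By cytokine, cells with Il6 had 1.5 times and cells with Lif 1.42 times the summed level of cells without, and cells with Csf1 1.06 times. Genes that signal downstream of gp130 also rose in sum, from 1662 CPM in cells with 0 to 2 cytokines to 2150 CPM with 5 and 2030 CPM with 6 or more. G2M phase genes went the other way, from 677 CPM in cells with 0 to 2 cytokines to 296 CPM with 5 and 152 CPM with 6 or more. Haematopoietic markers went from 79.7 to 5.56 CPM over the same cells. Of the 8 haematopoietic-like cells at this depth, 7 held 0 to 2 cytokines and 1 held 3, and their part in these sums was not tested. The share of mitochondrial UMIs moved little, with medians from 2.25% to 2.71%. Without the dividing and haematopoietic-like groups the NF-kB list differed 2.29-fold, and the part of mitochondrial share and depth was not tested.

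**Figure D5:**
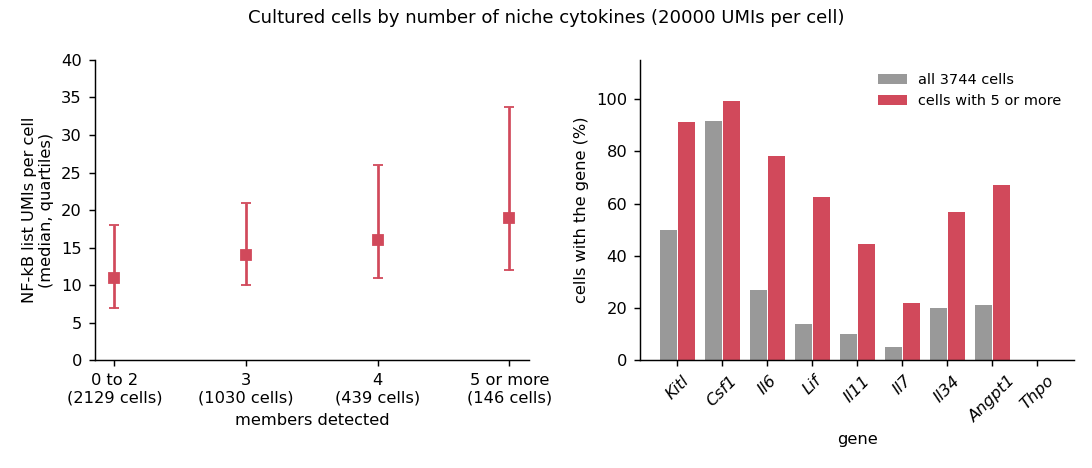
Left, NF-kB and inflammatory target UMIs per cultured cell (median and quartiles) by the number of the 9 cytokine genes detected, in cells thinned to 20000 UMIs; the median goes from 11 to 19. Right, share of cells with each gene among all 3744 cells (grey) and among the 146 cells with 5 or more (red), a choice that itself raises every gene; Il6 is in 78.1% and Csf1 in 99.3% of the 146 cells.

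The genes whose counts went most closely with a cytokine were sought among those with at least 20 CPM over the 3744 cultured cells. For Kitl these were Ctxnd1, Il1rl1 and Cemip, with Pearson r of 0.20, 0.18 and 0.18. Angpt1 went with Pdzrn4, Cdh11 and Cdk14, with r of 0.31, 0.30 and 0.27. Csf1 went with Ahcyl1, Septin11 and Ccn1, at 0.36, 0.34 and 0.34, Il6 with Fgf10, Tnc and Prelp, at 0.24, 0.24 and 0.22, and Il34 with Wls, Nrg1 and Npr3, at 0.16, 0.15 and 0.15. The number of cytokines per cell went with Plxdc2, Raph1, Pcdh7, Svep1, Zswim6, Serpine2, Tnc and Myo10, with r from 0.21 to 0.25, and against 8 ribosomal protein genes led by Rpsa, Rpl14 and Rpl6, with r from -0.19 to -0.17. Correlations over cells are given as a description, since these cells come from 1 library and transcripts per cell are few.

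Receptors of these cytokines showed no such difference upwards. Of 13 receptor genes, 0 were 4-fold or more above primary CDSCs and 3 were 4-fold or more below, beside 11.5% and 11% of all genes. Those 3 were all under 1 CPM. The shared chain Il6st was at 74.8 CPM in primary and 184 CPM in cultured CDSCs, a log2 ratio of 1.3 (1.27 to 1.33). Its partners did not follow, with Il6ra at 46.9 and 17.5 CPM, Lifr at 13.3 and 11.7 CPM and Il11ra1 at 78.9 and 73.0 CPM. Transcripts of Il6, Lif, Il11 and each of their receptor chains were thus counted in both libraries.

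Receptors found on blood or endothelial cells were scarce. Kit had 31 UMIs in primary and 16 UMIs in cultured CDSCs and Tie1 60 and 0 UMIs. Of 9 endothelial markers, Tie1 among them, 7 were at least 4-fold lower in culture, with Pecam1 at 4.82 and 0.249 CPM and Cdh5 at 1.31 and 0.0579 CPM, while Egfl7 was at 4.61 and 10.04 CPM. Their sum was 181 and 15.6 CPM, but Erg alone gave 163 CPM of the primary sum. The part of endothelial cells in these receptor values was not tested. In sums over a library such as these, fewer cells of a type and less RNA per cell cannot be told apart. Csf1r was at 0.752 and 1.78 CPM, Tek at 0.804 and 0.221 CPM, Il7r had 6 and 28 UMIs and Il2rg 30 and 31 UMIs. Ptprz1, which binds Il34, had 32 and 94 UMIs, and Sdc1, a proteoglycan that also binds Il34, was at 31.0 and 35.7 CPM.

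Of 16 genes that signal downstream of gp130, 0 were higher and 2 lower by at least 4-fold, beside 11.5% and 11% of all genes. Their median log2 ratio was -0.78. Socs3, the feedback inhibitor that gp130 signalling induces, went from 264 to 27.6 CPM, a log2 ratio of -3.26 (-3.29 to -3.22), and Junb from 2833 to 321 CPM. Socs1, another feedback inhibitor, was at 37.7 and 11.6 CPM, within 4-fold. Of the 10 genes that shed, clear or inhibit these factors, 0 were higher by this measure and 1 was lower, the endothelial phosphatase Ptprb, with a median log2 ratio of 0.67. Cblb, a ubiquitin ligase, was at 19.6 and 76.3 CPM, the proteases Adam9 and Adam10 at 17.1 and 51.1 CPM and at 27.5 and 79.4 CPM, and Ctsk at 34.8 and 15.6 CPM.

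Other cytokines and niche factors went in both directions. Among 28 with a ratio, 9 were higher and 2 lower by at least 4-fold, beside 11.5% and 11% of all genes, with a median log2 ratio of 0.98. Cxcl12, the chemokine that retains stem cells in marrow, went from 1.36 to 549 CPM, osteopontin (Spp1) from 53.9 to 6617 CPM, the adhesion receptor Vcam1 from 0.629 to 19.0 CPM and Wnt5a from 2.54 to 19.7 CPM. Chosen after their values were seen, Tnfsf11, the osteoclast factor that acts with Csf1, went from 0.376 to 6.21 CPM, and Flt3l, which acts with Kitl and Il7 on progenitors, from 0.437 to 2.25 CPM. The inflammatory cytokine Il1b had 200 UMIs in primary and 2 UMIs in cultured CDSCs, and Csf2 had 7 and 0 UMIs. Both, like Ptprb above, were named for being the genes counted as lower. Of the 15 NF-kB and inflammatory targets 6 were higher and 0 lower by at least 4-fold, with a median log2 ratio of 0.40. Cxcl5 stood at 0.0350 CPM before and 35.5 CPM after culture, Saa3 at 0.752 and 74.0, Lcn2 at 1.02 and 59.5, and Ccl2 at 0.909 and 26.3.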

How the data were processed

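Single-cell RNA sequencing was performed on 1 library of primary and 1 library of cultured CDSCs (MobiDrop service, Chromium 3' v3.1 chemistry), grouped by their treatment labels. Per the file headers and the submitters' processing notes, the authors used Cell Ranger 7.0.0 and deposited raw UMI counts per gene and barcode, without normalization. The notes name mm10, GRCm38 and GRCm39, and the study's methods mm10/GRCm38. The annotation release is not given in the sources used here. Reads in 3' libraries reach only transcript ends.

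The members and gene lists were chosen with earlier results of these data known. Barcodes needed 500 genes, 1000 UMIs and no more than 10% mitochondrial UMIs, which 150 primary and 5460 cultured barcodes failed, 5336 of the latter for UMIs. Scrublet's automatic threshold had not worked (0 and 1 calls), so its top-scoring cells at 0.8% per 1000 barcodes, 1118 and 461, were removed. Counts were summed and scaled to CPM. Log2 ratios are cultured over primary, with counts under 3 raised to 3. Summed counts have Poisson, shares Clopper-Pearson and ratios exact conditional intervals. Intervals of a pair cover the count of cells with both genes, not the error of the shares. Cells were clustered in scanpy 1.11.5 (2000 variable genes, 10 components, 20 neighbours, Leiden resolution 0.5), and 1 mixed primary cluster was clustered again. Large groups have at least 100 cells and a median of at least 5000 UMIs. Named genes were the 9 members, all receptors, up to 4 genes with at least 10 CPM and the largest change from each functional list, the 3 genes most like each member that had at least 10 CPM in culture, the 8 genes at each end for the number per cell, and leading genes of groups. Some genes that this rule names are not reported here. Gene coordinates came from GENCODE M21 (GRCm38) and promoters from RefSeq (GRCm38.p6), by identifier and symbol. Statistics were tested on simulated data. Alternatives included TMM (edgeR 4.0.16) and size factors (DESeq2 1.42.0).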

Additional observations from a re-analysis of the deposited data

How the results depend on the processing

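The count of members with at least a 4-fold difference stayed at 6 higher and 0 lower in cultured CDSCs under all 10 alternatives tried, which changed doublets, cell filters, weighting, scaling or the cell groups included, and 2 of these 10 were added after the data were seen. The 8 members with a higher share of cells became 5 when at least 2 UMIs were asked for. The ratio of observed to independent cells with 5 or more members was 1.16 (1.06 to 1.27) at 40000 UMIs and 1.90 (0.392 to 5.55) at 5000 UMIs, the latter resting on 3 cells. Pairs above the product of their shares were 2 at 10000 UMIs, Il6 with Lif and Il6 with Il11. Of the 5 pairs at 20000 UMIs, 4 were above with another thinning seed and 3 at 40000 UMIs, where Il6 with Lif was not. The level of NF-kB targets in cells with 5 or more over cells with 0 to 2 members was 2.15-fold with another seed, 2.21-fold with presumed doublets kept and 1.87-fold at 40000 UMIs. Receptors at least 4-fold lower were 0 among genes with at least 1 CPM or with at least 10 CPM, and a 2-fold limit gave 2 higher and 6 lower. Other cytokines lower were 1 at 1 CPM and 0 at 10 CPM, those higher were 5 at 10 CPM, and a 2-fold limit gave 14 higher and 6 lower. The cause of these shifts was not tested. No paired analysis was possible because each group is 1 library. Depth limited Thpo and Il7 in primary CDSCs, and PCR and capture losses are not covered by the intervals.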

Other observations

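Lists that stand apart from the cytokine pathways were measured in the same way, beside 11.5% of all genes higher and 11% lower. Of 8 AP-1 genes, 0 were higher and 5 lower in cultured CDSCs by at least 4-fold, with Fos at 5414 and 309 CPM, Atf3 at 1196 and 23.5 CPM, Fosb at 955 and 122 CPM and Junb at 2833 and 321 CPM. Of 8 YAP and TEAD targets 3 were higher and 2 lower, with Vgll3 at 0.175 and 388 CPM, Ankrd1 at 0.0699 and 14.5 CPM, Axl at 10.7 and 79.0 CPM and Ccn1 at 1354 and 223 CPM. Of 15 S phase genes 2 were higher and 1 lower, and of 15 G2M phase genes 11 were higher and 0 lower, Hmmr being at 4.05 and 42.6 CPM and Cenpf at 9.14 and 78.1 CPM.

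Cytokine UMIs were also counted in shallow cultured barcodes. In the 701 led by Cmss1 and Lars2, with medians of 1191 UMIs and 0.351% mitochondrial UMIs, Csf1 was at 191 CPM (166 to 219) and Kitl at 48.0 CPM (36 to 62.8), beside 223 and 61.6 CPM in the library. Transcripts of cells and free RNA cannot be told apart in these barcodes. All but 1 of them were left out of the counts per cell at 20000 UMIs.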
